A study of Homo sapiens with 10 samples.

Results

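MicroRNA genes are very short, and in the annotated region table of this H3K27ac experiment each acetylated region carries the symbol of 1 nearby gene. The regions described here are those assigned to a microRNA gene, chosen by symbol (MIR followed by a number, or MIRLET), with microRNA host genes left out. They number 1716 of the 67387 annotated regions, or 2.55%, and belong to 472 microRNA genes. All regions have the same width, and all 1716 passed the filter on low counts.

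H3K27ac, the acetylation of lysine 27 on histone H3, marks active promoters and enhancers. It was measured by chromatin immunoprecipitation and sequencing in H1975, an established human lung adenocarcinoma line that carries mutant EGFR. The osimertinib DTP group (drug tolerant persisters) received 500 nM osimertinib, an EGFR kinase inhibitor, over 24 days. The osimertinib DTP + AZD5153 group received 500 nM osimertinib over 21 days and then 150 nM AZD5153, an inhibitor of the acetyl-lysine readers of the BET family, over 3 days. The DMSO group was kept without drug for 21 days and given DMSO vehicle for 3 days. Each group had 3 biological replicates of this 1 line, and 1 pooled input library was made. The labels do not say whether osimertinib was still present during the days with AZD5153.

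A microRNA gene is transcribed as a longer primary transcript, often the intron of another gene. DROSHA and DGCR8 cut the hairpin out of it, DICER1 trims the hairpin to a strand of about the length of those printed below, and an Argonaute protein carries that strand to messenger RNAs. Pairing of the seed, bases 2 to 8 of the mature strand, decides most of the targets, and TNRC6 proteins then silence the bound message. Because primary transcripts start away from the hairpin, the hairpin start used in the annotation is usually not a transcription start, and a region carrying the symbol of a microRNA need not control it.

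The mature strands of the microRNAs on which the results below turn are printed from RefSeq (GRCh38.p14), 5′ to 3′, with the seed in capitals. Mature strands were read for 426 of the 472 genes, and 33 seeds were shared by at least 2 of these genes. Both regions of MIR548AJ1 gained acetylation after osimertinib, and its seed AAAAACU is shared with MIR548J. Some or all regions of MIR4786, MIR6774, MIR3936, MIR28 and MIR31 also gained.
miR-548aj-3p of MIR548AJ1: uAAAAACUgcaauuacuuuua
miR-548j-3p of MIR548J: cAAAAACUgcauuacuuuugc
miR-4786-5p of MIR4786: uGAGACCAggacuggaugcacc
miR-6774-3p of MIR6774: uCGUGUCCcucuuguccacag
miR-3936 of MIR3936: uAAGGGGUguauggcagaugca
miR-28-3p of MIR28: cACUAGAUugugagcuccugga
miR-31-5p of MIR31: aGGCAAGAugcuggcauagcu

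All regions of MIR154, MIR4798 and MIR5006 and 12 of the 20 regions of MIR5008 lost acetylation. Some regions of MIRLET7A2 also lost it, and its main strand is letter for letter that of MIRLET7A1 and MIRLET7A3 and shares the seed GAGGUAG with MIRLET7B. MIR221 and MIR222 share the seed GCUACAU and differ outside it.
miR-154-5p of MIR154: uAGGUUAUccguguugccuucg
miR-4798-5p of MIR4798: uUCGGUAUacuuugugaauugg
miR-5006-3p of MIR5006: uUUCCCUUuccauccuggcag
miR-5008-3p of MIR5008: cCUGUGCUcccagggccucgc
let-7a-5p of MIRLET7A1, MIRLET7A2 and MIRLET7A3: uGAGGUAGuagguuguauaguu
let-7b-5p of MIRLET7B: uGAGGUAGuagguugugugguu
miR-221-3p of MIR221: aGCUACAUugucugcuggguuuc
miR-222-3p of MIR222: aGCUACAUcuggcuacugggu

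The 9 H3K27ac libraries held 6263443 to 10463351 counts over all regions, and the input held 1870885. Replicate 3 of osimertinib DTP + AZD5153 stood apart. It had the lowest total. Its rank correlations with replicates 1 and 2 of its group were 0.445 and 0.367, against 0.805 to 0.893 between the other replicates of a group. Its median count per microRNA region was 21, against 46 to 75 in the other libraries. In that library 39 of the microRNA regions had no count, and counts of 0 there mean fewer than about 3 expected counts, not absence. Results are therefore also given without it. The epithelial markers EPCAM, CDH1, KRT8 and KRT18 and the lung lineage markers NKX2-1, NAPSA and SFTPB all had regions, and the leukocyte markers PTPRC and CD3E had none. Of the fibroblast markers, DCN had no region, and the 14 regions of COL1A1, COL1A2 and PDGFRB summed to 34.9 to 86.7 CPM (counts scaled by library size) with DMSO, 132 to 263 with osimertinib and 214 to 475 with osimertinib then AZD5153. The 19 regions of the endothelial markers PECAM1, VWF and CDH5 summed to 201 to 271, 167 to 233 and 125 to 221 CPM. The part of these shifts in the results below was not tested. The measurement averages many cells, so more cells with the mark and more mark per cell cannot be told apart.

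The microRNA regions lay mostly inside or between other genes. The annotation placed 779 (45.4%) in introns and 400 (23.3%) in distal intergenic sequence, against 31.6% and 17.2% of all annotated regions. Only 233 (13.6%) lay within 1 kb of the hairpin start, the class the annotation calls promoter, against 36.1%. A further 178 (10.4%) lay at 1 to 3 kb, against 9.72%, and 126 (7.34%) in exons, UTRs or downstream of a gene, against 5.51%. The median distance to the hairpin start was 10887.5 bp and the longest 99928 bp. Of the 472 hairpins, 101 lay in a region of their own and 370 within another annotated gene. A microRNA gene had a median of 2 regions, 172 had 1, and the most were 25 for MIR4668, 24 for MIR583, 23 for MIR7850, 22 for MIR222 and 20 for MIR5008.

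The highest mean levels, without correction for input, lay on chromosome 8. MIR1208, beside PVT1 downstream of MYC, held 4 of the 5 regions with the highest mean, and MIR1205, within PVT1, held the fifth. The strongest, chr8:128177424-128177925, had 1082, 1079 and 1008 counts with DMSO, 1123, 1090 and 1106 with osimertinib and 1148, 1131 and 1003 with osimertinib then AZD5153. The groups overlapped in part, and the fitted log2 fold change was 0.25 (SE 0.43) after osimertinib and 0.50 (SE 0.43) after osimertinib and AZD5153. Input counts over these 5 regions were 259 to 289, against a median of 12 over all microRNA regions. The largest fold enrichment over input of a peak was 5.29 to 7.08 at these 5 regions. It was 4.27 at a MIR4668 region, 72.08 at a MIR6774 region and 87.47 at the MIR141 region, so high counts here are not high enrichment. The share of the high input in these levels was not tested.

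Against DMSO, osimertinib DTP cells gained acetylation at 159 microRNA regions and lost it at 211. These are 9.27% and 12.3% of the 1716 regions (edgeR quasi-likelihood test, Benjamini-Hochberg adjusted p under 0.05 over 157919 regions). Over all regions tested, 5.58% were called higher and 5.13% lower, and over the annotated regions 6.98% and 7.22%. Called regions that lay close together merged into 94 higher and 137 lower loci. The median log2 fold change of the microRNA regions was -0.04, beside 0.15 over all regions tested and 0.18 over the other annotated regions. In 892 of them (52.0%) the 2 groups did not overlap, beside 43.7% of the other annotated regions. This differed by annotation class. The shares were 54.2% and 57.8% in introns and 43.8% and 49.8% at 1 to 3 kb. They were 34.3% and 22.7% within 1 kb, 60.0% and 56.1% in distal intergenic sequence, and 57.1% and 54.3% in exons, UTRs or downstream. The spread of replicate 3 of osimertinib DTP + AZD5153 enters the shared error estimate. Without that library 303 microRNA regions (17.7%) were called higher and 383 (22.3%) lower, beside 14.2% and 12.7% of all regions tested. Leaving out a DMSO or osimertinib DTP library lowered the calls, from 112 higher and 81 lower without osimertinib DTP replicate 1 and 83 and 130 without DMSO replicate 1 down to 13 and 22 without DMSO replicate 2. The shares over all regions in those fits were not worked out.

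The calls were not spread evenly over the microRNA regions. Where a region lay over the hairpin start, 7.87% of 89 regions were called. At up to 3000 bp from the start the share was 16.8% of 322, from there to 20000 bp 20.4% of 683, and beyond 20000 bp 27.3% of 622. Within 1 kb of the hairpin start 11.6% of the microRNA regions were called, beside 4.57% of the other annotated regions of that class. In introns the shares were 22.1% and 19.8%, in distal intergenic sequence 27.2% and 22.1%, and at 1 to 3 kb 19.1% and 14.1%. Nearly equal shares were called for microRNAs with a number under 1000 (19.3% of 467 regions) and for the others (22.4% of 1249). These shares are descriptions, since regions of 1 gene are not independent.

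**Figure D1:**
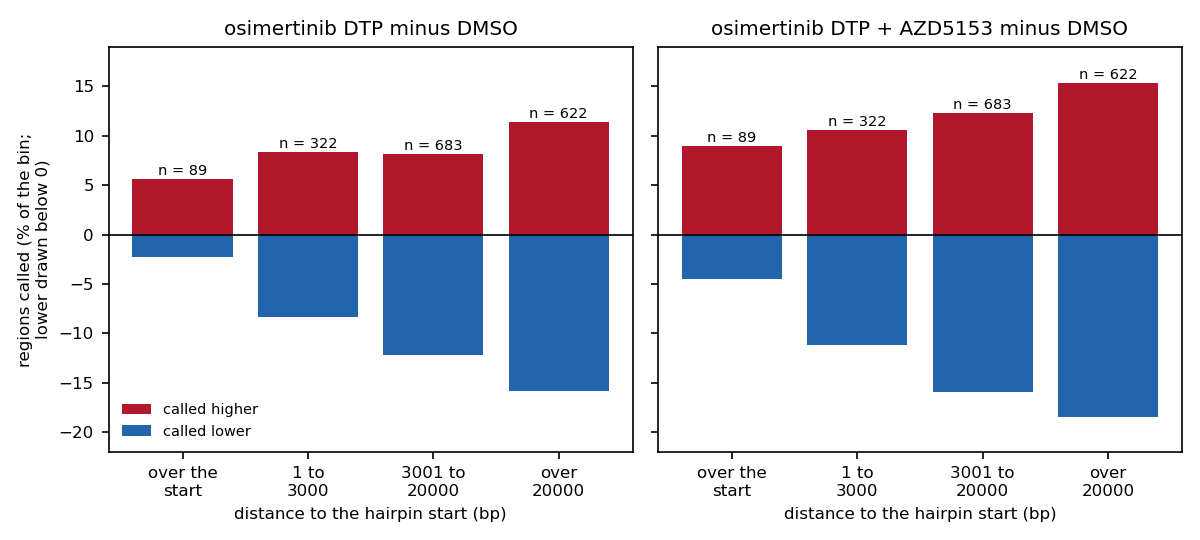
Share of microRNA regions called higher (red, above 0) or lower (blue, below 0) against DMSO, in percent of the regions in each bin of distance to the hairpin start, for both treated groups. After osimertinib, 7.87% of the regions over the start were called and 27.3% of those beyond 20000 bp.

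The leading gain was at MIR548AJ1 on chromosome 6. Its regions lie near 30 kb from the hairpin and overlap CCN2-AS1, the antisense gene at CCN2, which encodes a matrix-linked growth factor. At chr6:132084326-132084827 the counts were 6, 3 and 3 with DMSO, 127, 174 and 141 with osimertinib and 166, 170 and 78 with osimertinib then AZD5153. Neither treated group overlapped DMSO, and the treated groups overlapped each other. The log2 fold change after osimertinib was 5.39 (SE 0.66, adjusted p = 0.00273). The neighbouring region gained too, with a log2 fold change of 5.18 (SE 0.77). Peaks were called over both in 0 of 3 DMSO and 3 of 3 osimertinib DTP libraries. The gene with the same seed, MIR548J in TPST2, had a log2 fold change of 0.19 (SE 0.42) in its single region.

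MIR4729 lies within YPEL2. Its region 31 bp from the annotated start, chr17:59366114-59366615, had 7, 5 and 12 counts with DMSO, 123, 86 and 156 with osimertinib and 138, 147 and 54 with osimertinib then AZD5153. No treated library was as low as any DMSO library, and the log2 fold change was 4.04 (SE 0.61, adjusted p = 0.00292). Of the 9 regions of MIR4729, 6 were called higher and none lower.

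MIR6774 lies within IRF8, which encodes a transcription factor of the interferon regulatory family, and its called regions lie beyond that gene. The strongest, chr16:85970256-85970757, had 29, 22 and 32 counts with DMSO, 163, 387 and 420 with osimertinib and 365, 424 and 320 with osimertinib then AZD5153. All treated libraries were above all DMSO libraries. The log2 fold change was 3.77 (SE 0.60, adjusted p = 0.00316), and 8 of its 10 regions were called higher with changes of 2.00 to 3.77.

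Other gains were at MIR4786 within NDUFA10, with 2, 2 and 4 counts with DMSO and 39, 50 and 56 with osimertinib (log2 fold change 4.30, SE 0.71). At MIR7156, in an intron of PIGK, the counts were 1, 3 and 3 with DMSO and 49, 74 and 151 with osimertinib (log2 fold change 5.36, SE 0.92). In both the groups did not overlap. At MIR4293 counts rose from 9, 2 and 3 to 74, 41 and 61, a log2 fold change of 3.78 (SE 0.65).

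Losses were as large. MIR154 belongs to the large microRNA cluster of the imprinted DLK1 to DIO3 domain, and its region 352 bp before the hairpin, chr14:101058902-101059403, had 127, 318 and 190 counts with DMSO, 7, 3 and 13 with osimertinib and 8, 9 and 4 with osimertinib then AZD5153. DMSO libraries were all above all treated ones. Acetylation fell by 4.68 on the log2 scale (SE 0.67, adjusted p = 0.00273), and peaks were called in 3 of 3 DMSO and 0 of 6 treated libraries. The adjoining region of MIR154 fell by 4.22 (SE 0.75). MIR2392, in an intron of MEG3 in the same domain, changed by -1.03 on the log2 scale (SE 0.64, adjusted p = 0.341), which did not pass the test.

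MIR4798 lies in an intron of SORCS2, a sortilin-family receptor gene, and 3 of its 3 regions were called lower. At chr4:7263357-7263858 the counts were 122, 241 and 161 with DMSO, 9, 4 and 3 with osimertinib and 4, 2 and 5 with osimertinib then AZD5153. DMSO libraries were all far above the treated ones, and MIR4798 fell by 4.88 on the log2 scale (SE 0.70, adjusted p = 0.00273) after osimertinib. MIR5006, in VWA8, had all 4 of its regions called lower. Its leading region, chr13:41589665-41590166, fell from 70, 102 and 136 counts to 2, 2 and 8 after osimertinib and to 1, 1 and 0 after osimertinib and AZD5153, and neither treated group overlapped DMSO. The fitted log2 fold changes, -4.52 (SE 0.71) and -6.73 (SE 0.88), depend on the prior count at such low values.

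Further losses were at MIR6072 on chromosome 10, where counts of 55, 147 and 96 in DMSO stood against 4, 2 and 4 in osimertinib DTP (log2 fold change -4.74, SE 0.75). At MIR3692, in ZDHHC14, counts of 186, 289 and 188 stood against 21, 9 and 6 (log2 fold change -4.07, SE 0.68). At MIR4468 they were 147, 226 and 149 against 19, 6 and 5 (log2 fold change -4.00, SE 0.67). The groups did not overlap in any of these 3 regions.

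**Figure D2:**
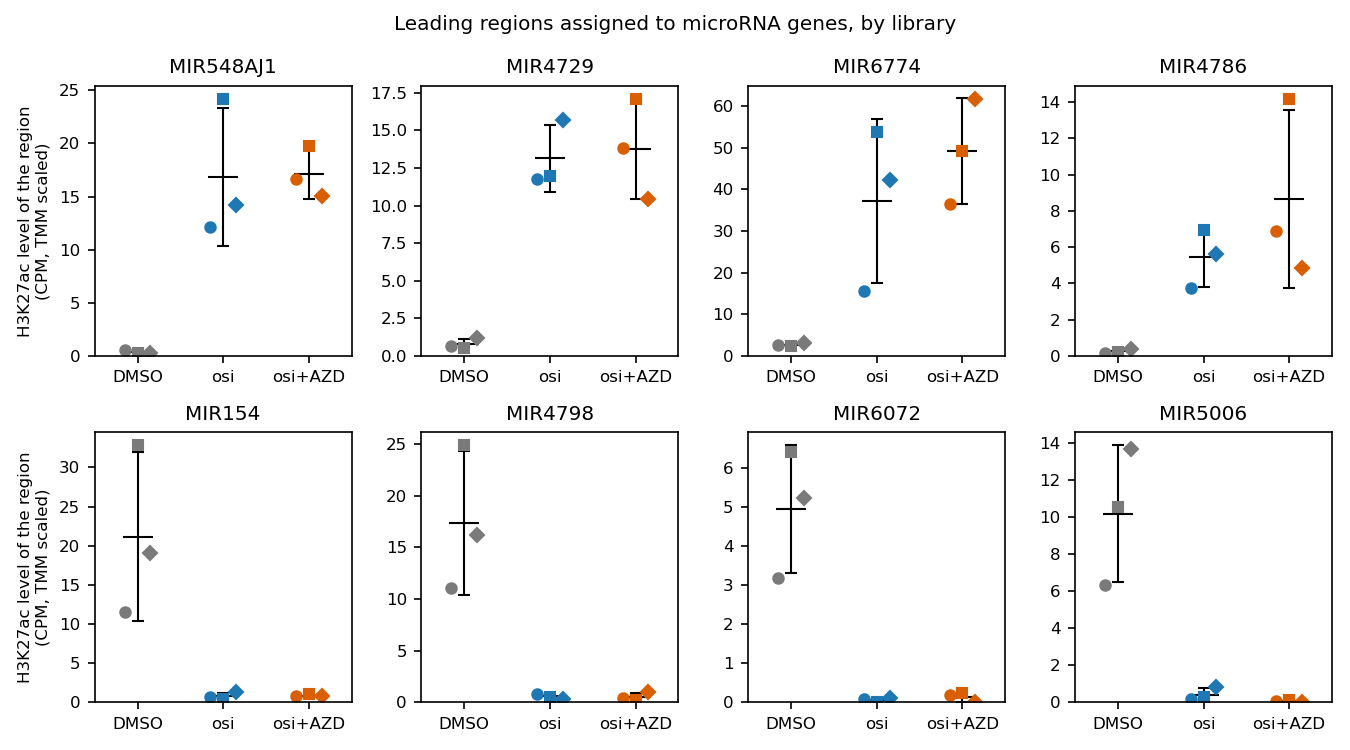
H3K27ac level (CPM scaled by TMM, linear axes from 0) of the leading region of 4 microRNA genes that gained (top) and 4 that lost (bottom) acetylation after osimertinib, with 1 point per library (circle, square and diamond for replicates 1, 2 and 3) and mean and SD bars. The MIR548AJ1 region stood at 0.385 CPM in DMSO and 16.9 in osimertinib DTP, and the MIR154 region at 21.2 and 0.799.

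Several microRNA genes had many called regions. After osimertinib 153 microRNA genes (32.4%) had a called region, beside 26.3% of the other gene symbols, and 75 of the 472 had at least 2, beside 2120 of the 15161 other symbols. Of these 75, 32 had only gains, 37 only losses and 6 both. MIR4668, in UGCG on chromosome 9, had the most gains, with 14 of its 25 regions higher by log2 fold changes of 1.82 to 3.36. MIR7850, in GNG7, and MIR1260B, in MAML2, had 7 each. MIR5008, in WNT9A, had the most losses, with 12 of its 20 regions lower, by log2 fold changes of -3.33 to -2.57. MIR4708 had 10 of 14 lower and MIR4470 9 of 17. MIR6881, in SEMA7A, had 5 of 7 lower, and MIR5584, in RNF220, 6 of 8.

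At MIR3936 the hairpin itself lay under a changed region. Its region over the hairpin start, chr5:132365405-132365906, had 10, 12 and 5 counts with DMSO, 56, 97 and 54 with osimertinib and 72, 91 and 30 with osimertinib then AZD5153, with no overlap between treated and DMSO libraries. Its log2 fold change was 3.17 (SE 0.64, adjusted p = 0.00693), and all 3 regions of MIR3936 were called higher. MIR28, in an intron of LPP, had 4 of 8 regions higher, and at chr3:188679319-188679820 counts of 8, 10 and 13 stood against 39, 174 and 177. Both groups were apart there, and the log2 fold change was 3.88 (SE 0.73, adjusted p = 0.00540).

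Gains and losses met in the same gene at MIR583 and MIR466. MIR583 lies in CAST, the calpastatin gene, and 6 of its 24 regions were called lower and 4 higher. The 4 gains of MIR583 lay at -28179, -29243, 53866 and 54548 bp from the hairpin start, while 5 of the 6 losses lay between -644 and 15268 bp. At MIR466 the 5 losses lay at 55579 to 84436 bp and the 3 gains at -2565 to -10031 bp. The strongest gain of MIR466, chr3:31171818-31172319, stood at 1.18 ± 0.6 CPM (SD, n = 3) with DMSO and 26.2 ± 4.62 with osimertinib, without overlap, and its log2 fold change was 4.45 (SE 0.73).

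**Figure D3:**
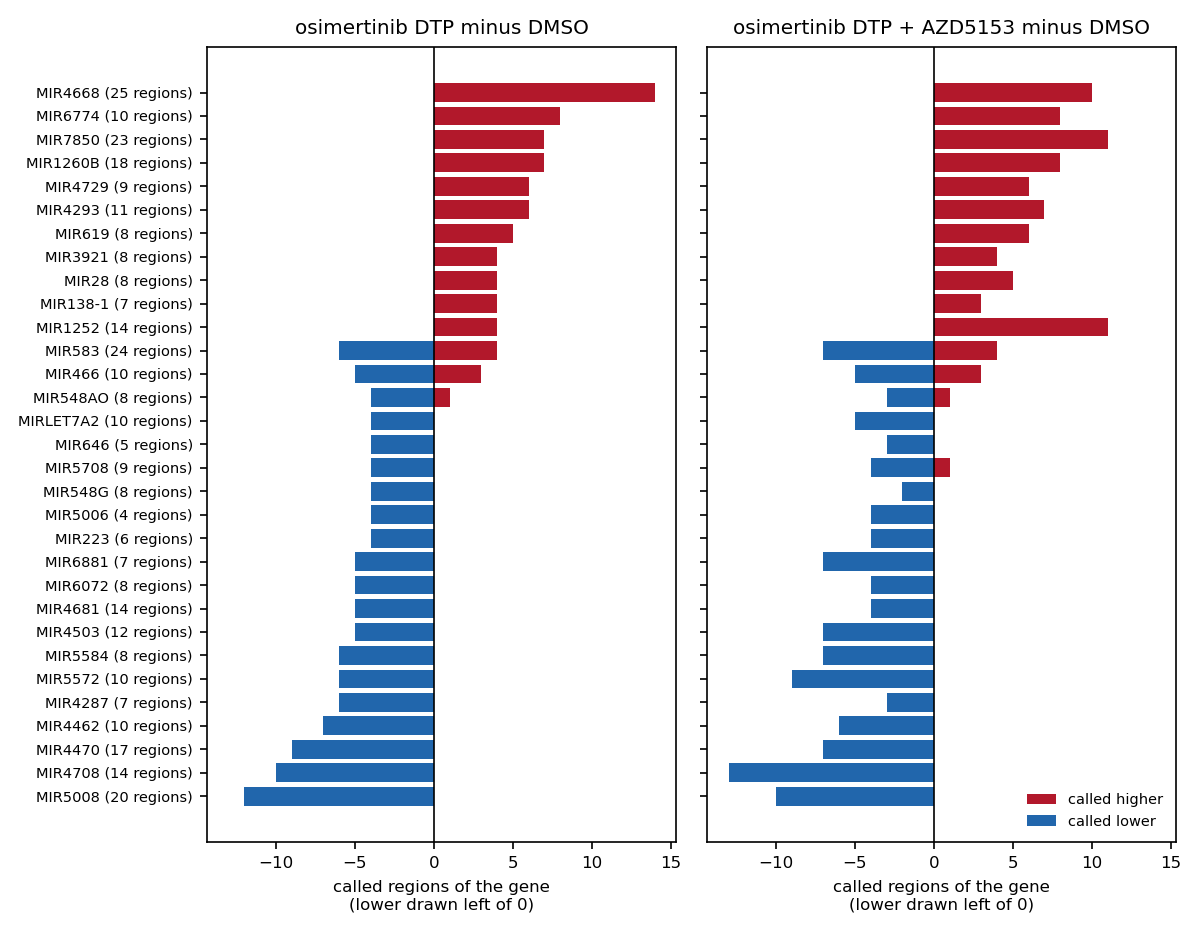
Number of regions called higher (red) or lower (blue, left of 0) against DMSO for each microRNA gene with at least 4 regions called in 1 direction after osimertinib, in both treated groups, with the gene's number of regions in brackets. MIR4668 leads the gains with 14 regions and MIR5008 the losses with 12, and MIR583 and MIR466 have both.

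Counts were also summed over all regions of each gene symbol, so that each microRNA was tested once. In osimertinib DTP 27 microRNA genes were higher (5.72%) and 43 lower (9.11%) than in DMSO, beside 5.16% and 6.07% of 15633 gene symbols, and 156 had an unadjusted p under 0.05. Equal replicate numbers paired the DMSO and osimertinib DTP libraries, and with the replicate number as a block 41 genes passed in place of 70. Without osimertinib DTP + AZD5153 replicate 3 there were 164, and without any other single library 9 (DMSO replicate 2) to 62. The shares of all gene symbols in these fits were not worked out. MIR6881 fell by 2.32 (SE 0.22, adjusted p = 0.00260) on the log2 scale of summed counts, with 1079, 1414 and 1055 counts with DMSO and 239, 295 and 164 with osimertinib. MIR5008 fell by 2.36 (SE 0.35), from 3028, 3432 and 3426 counts to 808, 430 and 557, and no osimertinib library of either gene reached the DMSO range. MIR6774 rose by 2.19 (SE 0.37, adjusted p = 0.00999). MIR4668, in spite of its 14 called regions, had 908, 987 and 760 counts with DMSO and 2902, 1498 and 2057 with osimertinib, and its log2 fold change of 1.40 (SE 0.49, adjusted p = 0.101) did not pass.

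Lists of well-studied microRNAs are set here beside the shares over all regions tested, 5.58% higher and 5.13% lower after osimertinib. After osimertinib and AZD5153 these shares were 9.05% and 9.01%. Without replicate 3 of osimertinib DTP + AZD5153 they were 14.2% and 12.7% after osimertinib, and 18.4% and 17.3% after osimertinib and AZD5153. The median log2 fold change over all regions was 0.15 after osimertinib. The counts are descriptions, and those without replicate 3 of osimertinib DTP + AZD5153 were added after the data were seen. Of the 8 listed microRNAs that keep epithelial state or mark it (the MIR200 family, MIR141, MIR205 and both MIR203 genes), 5 had regions, 11 in all, and none of these was called after osimertinib. Their median log2 fold change was 0.81, and that of the 5 genes on summed counts was 0.37. After osimertinib and AZD5153 these medians were 0.69 and -0.07. MIR205 had 87, 140 and 171 counts at its strongest region with DMSO, 148, 307 and 468 with osimertinib and 284, 578 and 63 with osimertinib then AZD5153. The groups overlapped, and the log2 fold changes were 1.39 (SE 0.64, adjusted p = 0.179) and 1.45 (SE 0.64, adjusted p = 0.129). Without the combination library that stood apart, 3 of the 11 regions (27.3%) were called higher after osimertinib, beside 14.2% of all regions tested. After osimertinib and AZD5153 3 (27.3%) were called higher, beside 18.4%. In that fit the median of the 11 regions was 0.8 after osimertinib but -0.41 after osimertinib and AZD5153. Between the 2 treated groups it was -0.77, so the gains do not describe the whole list.

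Of 16 listed microRNAs with growth-promoting roles, 5 had regions, 38 in all, of which 1 was called higher (2.63%) and 1 lower (2.63%) after osimertinib, with a median of -0.42. After osimertinib and AZD5153 2 were higher (5.26%) and 2 lower (5.26%). Without the combination library that stood apart the counts were 2 (5.26%) and 4 (10.5%) after osimertinib. In that fit they were 5 (13.2%) and 5 (13.2%) after osimertinib and AZD5153. The gain was at MIR31, which lies in its host gene MIR31HG. At chr9:21507053-21507554 its counts were 13, 14 and 12 with DMSO, 73, 67 and 126 with osimertinib and 198, 233 and 9 with osimertinib then AZD5153. Osimertinib DTP lay wholly above DMSO, and the log2 fold change was 2.91 (SE 0.76, adjusted p = 0.0227). Leaving out any of 5 libraries ended this call, namely each of the 3 DMSO libraries and osimertinib DTP replicates 2 and 3, with an edgeR adjusted p of up to 0.111. MIR21, in VMP1, had 456, 505 and 366 counts at its strongest region with DMSO and 540, 307 and 320 with osimertinib, which overlapped, and its log2 fold change was -0.04 (SE 0.49). MIR222 had 22 regions, of which 1 was lower, and the single region of MIR221 changed by -0.81 on the log2 scale (SE 0.57, adjusted p = 0.410).

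Of 30 listed microRNAs with growth-restraining roles, 10 had regions, 55 in all, and 4 of these (7.27%) were lower after osimertinib, all of MIRLET7A2, and none higher, with a median of 0.06 over the list. After osimertinib and AZD5153 1 was higher (1.82%) and 5 lower (9.09%). Without the combination library that stood apart the counts were 2 higher (3.64%) and 10 lower (18.2%) after osimertinib. In that fit they were 3 (5.45%) and 8 (14.5%) after osimertinib and AZD5153. The MIRLET7A2 hairpin lies in MIR100HG on chromosome 11, and the called regions lie 4464 to 6954 bp from it. At chr11:122141628-122142129 MIRLET7A2 had 116, 81 and 81 counts with DMSO, 25, 6 and 20 with osimertinib and 14, 7 and 2 with osimertinib then AZD5153, with the DMSO libraries above all others. The log2 fold change was -2.34 (SE 0.60, adjusted p = 0.0204). The region over the MIRLET7A2 hairpin itself had 50, 51 and 31 counts with DMSO and 16, 16 and 9 with osimertinib, and its change of -1.48 (SE 0.79, adjusted p = 0.258) did not pass. The genes that encode the same strand were not called, with log2 fold changes of summed counts of -0.04 (SE 0.19) for MIRLET7A1 and 0.86 (SE 0.74) for MIRLET7A3. MIR34A, a target of p53, had a change of 0.63 (SE 0.49, adjusted p = 0.467) at its strongest region. Of 12 listed microRNAs linked to EGFR signalling, 4 had regions, 36 in all, of which 1 (2.78%) was lower and none higher after osimertinib. The median of these regions was -0.61, and 2 (5.56%) were lower after osimertinib and AZD5153. Without the same library 4 (11.1%) were lower after osimertinib. In that fit 3 (8.33%) were higher and 4 (11.1%) lower after osimertinib and AZD5153. Of these regions MIR222 held 22 and MIR21 held 10, and both genes are also in the growth-promoting list.

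**Figure D4:**
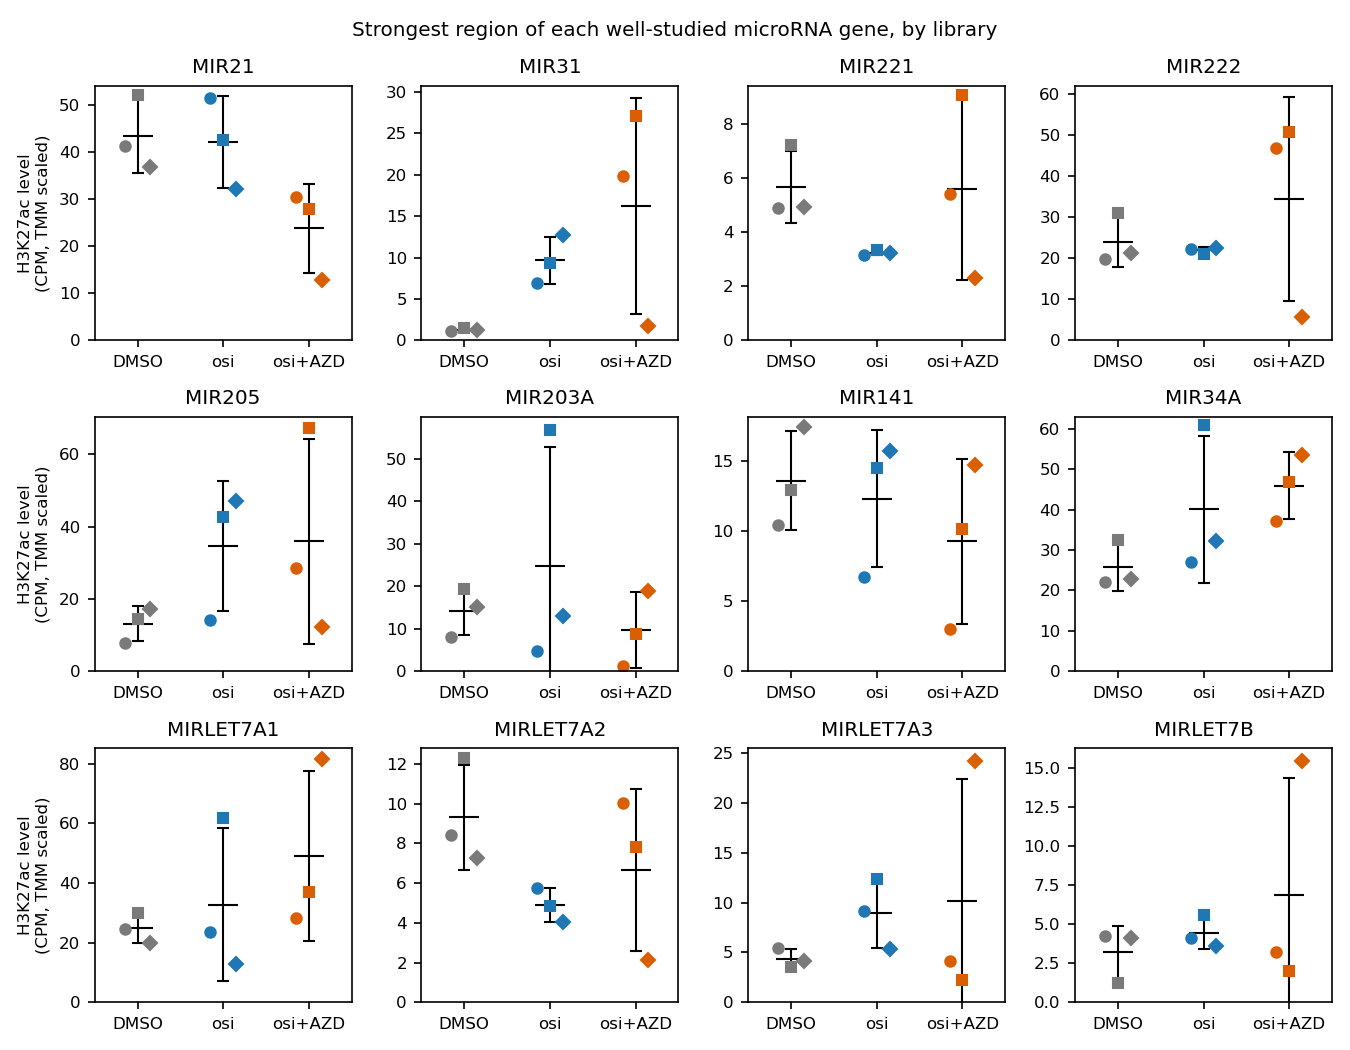
H3K27ac level (CPM scaled by TMM, linear axes from 0) of the strongest region of 12 well-studied microRNA genes, with 1 point per library (circle, square and diamond for replicates 1, 2 and 3) and mean and SD bars. MIR31 rose from 1.28 CPM in DMSO to 9.66 in osimertinib DTP, and in most panels the groups overlap.

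Osimertinib DTP + AZD5153 was compared with the same DMSO libraries, so this comparison is not independent of the one above. It called 222 microRNA regions higher (12.9%) and 264 lower (15.4%), beside 9.05% and 9.01% of all regions tested and 10.7% and 11.1% of the annotated regions. The median log2 fold change was 0.04, beside 0.24 over the other annotated regions. Without replicate 3 of osimertinib DTP + AZD5153 the calls were 385 (22.4%) and 381 (22.2%), beside 18.4% and 17.3% of all regions tested. Without DMSO replicates 2 and 3 in turn the calls were 87 and 123, and 88 and 155, for which no shares over all regions were worked out. Within 1 kb of the hairpin start 17.2% of the microRNA regions were called, beside 8.42% of the other annotated regions of that class, while in introns the shares were 30.7% and 30.1%. On summed counts 45 microRNA genes were higher (9.53%) and 67 lower (14.2%), beside 8.58% and 9.51% of gene symbols.

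Among the leading regions of this comparison MIR6499, in SLC36A1 and FAT2 on chromosome 5, had 53, 76 and 67 counts with DMSO, 3, 4 and 9 with osimertinib and 0, 1 and 1 with osimertinib then AZD5153. Its fitted log2 fold change was -6.00 (SE 0.89, adjusted p = 0.00122). MIR548AV, in NETO1 on chromosome 18, had 143, 224 and 149 counts in DMSO and 6, 2 and 1 in osimertinib DTP + AZD5153, with a log2 fold change of -5.50 (SE 0.83). MIR5584 had 103, 237 and 153 against 4, 5 and 1 (log2 fold change -5.28, SE 0.72). The groups did not overlap in these 3 regions. MIR3910-1 on chromosome 9 gained, from 11, 13 and 10 counts in DMSO to 184, 112 and 95, or by 3.88 on the log2 scale (SE 0.62, adjusted p = 0.00147). MIR4472-2 had 7 of 16 regions higher against DMSO here, and MIR1252, in SYT1, had 11 of 14. After osimertinib alone the same genes had 0 and 4 regions higher, a difference that was not tested by itself.

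Directly against osimertinib DTP, osimertinib DTP + AZD5153 had no called microRNA region, beside 0.0% of all regions tested, 0.0% of the annotated regions and 0.0% of gene symbols in edgeR. At an unadjusted p under 0.05 there were 99 of the 1716 regions and 7013 of all 157919 regions. DESeq2 called 2 regions, both higher, and without replicate 3 of osimertinib DTP + AZD5153 edgeR called 1 higher (0.0583%). In that edgeR fit 0.0637% of all regions tested were called higher and 0.0587% lower. On summed counts 35 genes had an unadjusted p under 0.05 and none was called, DESeq2 called 4, and edgeR without that replicate called 2. The matching shares of all gene symbols, and of all regions in DESeq2, were not worked out. The gain with the smallest unadjusted p was at a region of MIR3190 that lies in an intron of SAE1, where counts were 12, 5 and 23 with osimertinib and 79, 64 and 34 with osimertinib then AZD5153 (log2 fold change 2.37). At MIR3910-1 they were 30, 43 and 19 against 184, 112 and 95 (log2 fold change 2.22). Among the named falls the smallest unadjusted p was at MIR548AV, with 143, 224 and 149 counts with DMSO. It had 69, 8 and 15 with osimertinib and 6, 2 and 1 with osimertinib then AZD5153 (log2 fold change -3.05). MIR4636 had 187, 176 and 161 counts with DMSO, 100, 25 and 24 with osimertinib and 14, 10 and 6 with osimertinib then AZD5153. Regions of MIR4642 changed by -2.0 and -2.27. MIR4668 had, at chr9:111941546-111942047, 8, 5 and 5 counts with DMSO, 47, 25 and 46 with osimertinib and 9, 8 and 6 with osimertinib then AZD5153. At this MIR4668 region the treated groups did not overlap, and the log2 fold change was -2.08. None of these falls passed the adjusted test.

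All 13 listed genes that make and use microRNAs had regions, 55 in all. After osimertinib 3 were higher (5.45%) and 6 lower (10.9%), beside 5.58% and 5.13% of all regions tested, and after osimertinib and AZD5153 7 were higher (12.7%) and 4 lower (7.27%), beside 9.05% and 9.01%. When the combination library that stood apart was left out, 9 were higher (16.4%) and 7 lower (12.7%) after osimertinib. The shares of all regions tested were then 14.2% and 12.7%. After osimertinib and AZD5153 the counts without that library were 11 (20%) and 8 (14.5%), beside 18.4% and 17.3% of all regions tested. On summed counts 1 of the 13 was called, TNRC6C, which encodes a silencing partner of the Argonautes. TNRC6C had 98, 241 and 124 counts with DMSO, 22, 5 and 18 with osimertinib and 8, 11 and 6 with osimertinib then AZD5153. The treated libraries were all below DMSO, with log2 fold changes of -3.16 (SE 0.62, adjusted p = 0.0143) and -3.96 (SE 0.66, adjusted p = 0.00534). TNRC6A and TNRC6B had changes of -0.27 (adjusted p = 0.610) and 0.20 (adjusted p = 0.784) after osimertinib. DROSHA, DGCR8, XPO5, the export factor, and DICER1 had changes of 0.35, -0.28, 0.07 and -0.03 after osimertinib, none of which passed. AGO2, the slicing Argonaute, had 3 of 9 regions lower and a summed change of -0.66 (SE 0.26, adjusted p = 0.148).

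The 22 host genes, long RNAs from which microRNAs are cut, had 166 regions, of which 6 were higher (3.61%) and 19 lower (11.4%) after osimertinib, with a median log2 fold change of -0.40. After osimertinib and AZD5153 11 were higher (6.63%) and 18 lower (10.8%). Over all regions tested the shares were 5.58% and 5.13%, and 9.05% and 9.01%. Without the combination library that stood apart there were 17 (10.2%) and 43 (25.9%) after osimertinib, beside 14.2% and 12.7% of all regions tested. In that fit 32 (19.3%) and 31 (18.7%) were called after osimertinib and AZD5153, beside 18.4% and 17.3%. On summed counts MIR29B2CHG, the host of a MIR29 pair, had 948, 1327 and 1236 counts with DMSO and 419, 395 and 402 with osimertinib, and MIR29B2CHG fell by 1.45 on the log2 scale (SE 0.27, adjusted p = 0.0124). MIR9-3HG fell by 2.90 (SE 0.64) and MIR4290HG fell by 2.97 (SE 0.67). Host and microRNA symbols could move in opposite directions. MIR646HG rose from 4, 5 and 4 counts to 29, 75 and 172 over its 2 regions (log2 fold change 4.53, SE 0.92, adjusted p = 0.0160), while MIR646, whose 5 regions overlap the same host, fell from 348, 522 and 338 counts to 60, 53 and 73 (log2 fold change -2.57, adjusted p = 0.00532). MIR31HG had 7 of 30 regions lower and none higher after osimertinib, beside the gain at MIR31.

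**Figure D5:**
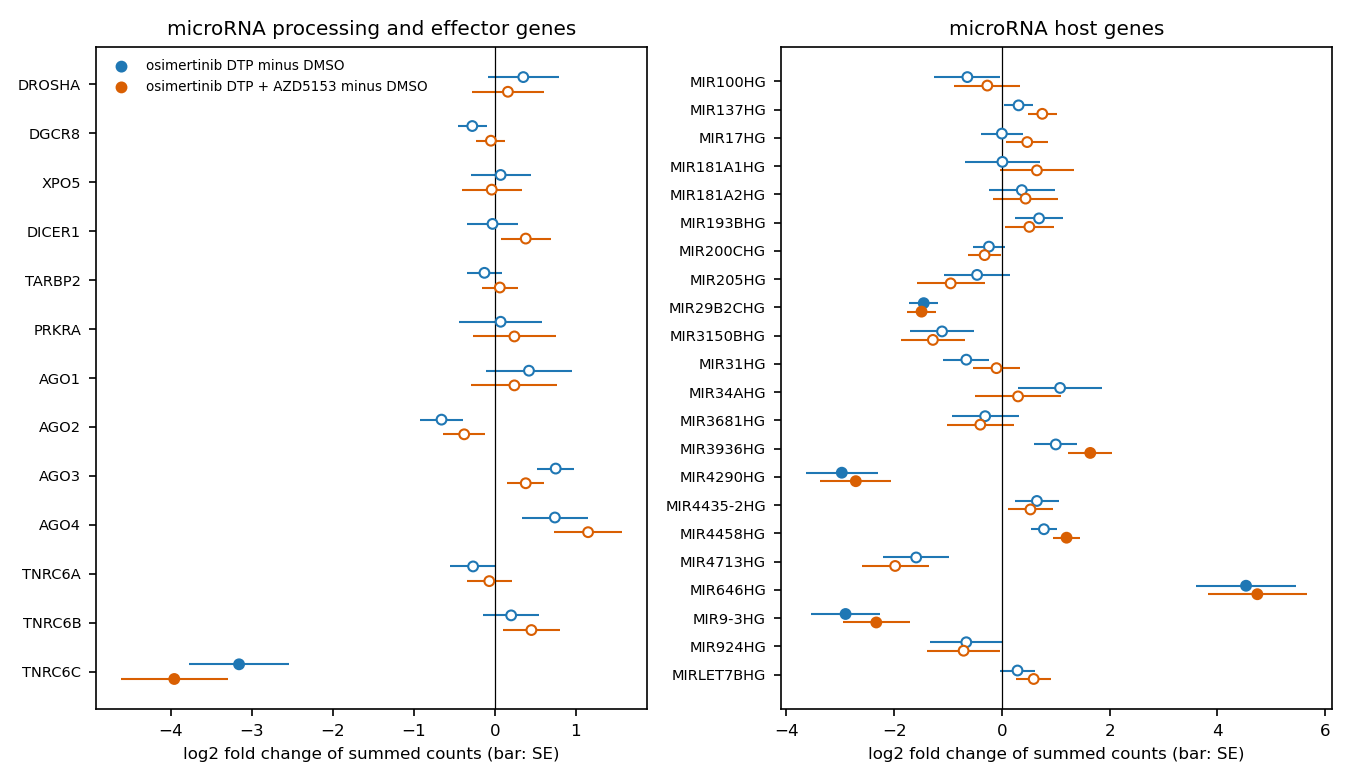
Log2 fold change of summed H3K27ac counts against DMSO, with SE bars, for 13 genes of microRNA processing and silencing (left) and 22 microRNA host genes (right), with filled points for an adjusted p under 0.05 and blue and orange for osimertinib DTP and osimertinib DTP + AZD5153. TNRC6C, at -3.16 and -3.96, is the only processing or silencing gene with filled points, and MIR646HG, at 4.53, is the highest host gene.

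As a share of all counts in a library, the microRNA regions held 1.83% ± 0.0711 (SD, n = 3) with DMSO, 1.66% ± 0.0763 with osimertinib and 1.68% ± 0.275 with osimertinib then AZD5153. Osimertinib DTP differed from DMSO by -0.166 percentage points, with every library below every DMSO library. The 2-sided exact permutation test gave p = 0.1, the smallest that 3 against 3 libraries allow. As a share of the counts in annotated regions the difference was -0.217 points (exact permutation p = 0.3). There the groups overlapped, with 2.396% in osimertinib DTP replicate 3 and 2.356% in DMSO replicate 1. The share in osimertinib DTP + AZD5153 differed from DMSO by -0.15 points (exact permutation p = 0.6) and from osimertinib DTP by 0.0162 points (exact permutation p = 1). Without its replicate 3 the difference from DMSO was 0.00637 points. Peaks called per library covered 79.1% ± 2.19 of the microRNA regions with DMSO, 79.0% ± 0.97 with osimertinib and 70.0% ± 12.9 with osimertinib then AZD5153 (n = 3 each), whose replicate 3 stood at 55.2%. A peak lay over 477 of the 1716 regions in all 9 libraries, and no region was without a peak in every library.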

How the data were processed

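H3K27ac ChIP-seq of H1975 cells was analysed from the deposited tables. The authors deposited raw read counts per region of equal width for 9 H3K27ac libraries and 1 pooled input, and an annotated subset that gives each region 1 gene symbol. They also deposited peaks called per library, with the fold enrichment over input and the −log10 q of each peak as the authors' peak caller wrote them. The submitters' processing notes name BWA 0.7.17, MACS2 2.2.6, featureCounts 2.0.0, ChIPseeker 1.29.1 and hg38, without roles.

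All 9 libraries entered 1 edgeR 4.0.16 quasi-likelihood fit (R 4.3.3, filterByExpr with a minimum count of 10, TMM, robust) over 157919 regions of 169637, with Benjamini-Hochberg adjustment over all of them and a threshold of 0.05. SE was the absolute log2 fold change divided by the square root of F. Counts summed per gene symbol were fitted likewise. Called regions within 1000 bp were merged into loci. A peak counted as covering a region from 1 bp of overlap. Shares of counts were compared by 2-sided exact permutation tests. The p-values measure the spread between biological triplicates of 1 line, and limits on counts of 0 cover counting error only. The test script was checked on simulated data.

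The labels state no pairing of libraries. Between DMSO and osimertinib DTP libraries of equal number, deviations from the group means had correlations of 0.334, 0.355 and 0.324, each over 0.1. The alternatives were DESeq2 1.42.0, no TMM, a loess offset (span 0.3), no count filter, annotated regions only, only the groups compared, a replicate block, each library left out in turn and a stricter threshold of 0.01 on the adjusted p. Named were, per comparison, the 10 called regions with the smallest p in each direction whose groups did not overlap (5 where none was called), genes with at least 3 called regions, the 5 genes with most regions, the 5 regions with the highest level and the strongest region of each listed microRNA. MIR3936, MIR28, MIR2392, MIR548J and the second regions of named genes were added after their values were seen. Symbols ending in HG were left out, and 1 further microRNA gene is not reported here. The members and lists were chosen with earlier results of these data known.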

Additional observations from a re-analysis of the deposited data

How the results depend on the processing

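In both comparisons with DMSO, calls changed most with the set of libraries in the fit. After osimertinib, 159 microRNA regions higher and 211 lower became 310 and 352 with only the groups compared and 51 and 58 at an adjusted p under 0.01, and ranged over 13 to 303 and 22 to 383 when 1 library was left out. The 70 genes called on summed counts became 132 with DESeq2 and 41 with the replicate block, and ranged over 9 to 164. For osimertinib DTP + AZD5153 against DMSO, 222 higher and 264 lower became 109 and 133 at an adjusted p under 0.01 and ranged over 87 to 385 and 123 to 381. The 112 genes became 70 with the replicate block, where equal numbers did not all correlate (-0.018, 0.553 and 0.362), and ranged over 39 to 193. In both comparisons the lowest counts came without DMSO replicate 2 and the highest without osimertinib DTP + AZD5153 replicate 3. Shares over all regions were worked out only for the fit without osimertinib DTP + AZD5153 replicate 3, and shares of all symbols for no alternative. Whether calls over all regions changed as much in the other settings was not tested.

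For osimertinib DTP + AZD5153 against osimertinib DTP, DESeq2 called 2 regions and 4 genes where edgeR called 0, and leaving out 1 library gave 0 to 1 regions higher, 0 lower and 0 to 2 genes. The replicate block gave 0. The share of counts differed by -0.0247 points with annotated regions as the denominator, a change of sign from 0.0162, and by -0.0855 to 0.173 points without 1 library. Against DMSO that share differed by -0.252 to 0.00637 points without 1 library, and after osimertinib by -0.199 to -0.124. With annotated regions as the denominator these differences were -0.241 and -0.217 points. Peak cover was 62% with DMSO and 61.6% with osimertinib for peaks with a −log10 q of at least 10, and 74.2% and 74.4% when most of the region had to be covered. Without 1 library it was 77.8% to 79.7% with DMSO, 78.6% to 79.5% with osimertinib and 65.6% to 77.4% with osimertinib then AZD5153. The causes were not tested.

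Of 30 named regions called after osimertinib, 22 were called in all 9 fits without 1 library, and of 34 called for osimertinib DTP + AZD5153 against DMSO, 31 were. Those lost were regions of MIR31, MIR4668, MIR548AV, MIR5584, MIR6499, MIR6774 and MIR8052 after osimertinib, and of MIR3190 and MIR4293 in the other comparison. For the 22 kept after osimertinib, the highest edgeR adjusted p was 0.0422 to 0.0485, without DMSO replicate 2. Most named regions were chosen for a small p in these same data, so they do not stand for the other calls. A region's symbol names a nearby microRNA gene and no microRNA was measured.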
